A study of Caenorhabditis elegans with 24 samples.

Results

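The genes described here are those of C. elegans that are related to Hedgehog and to its receptor Patched. They were taken as every probe set of the Affymetrix C. elegans array whose single gene symbol begins with grl-, grd-, wrt-, hog-, ptr- or ptc-, or is qua-1 or che-14, a rule on names that uses no measured value. The rule found 97 probe sets for 81 genes, among 22548 probe sets and 17118 named genes. Ligand-type genes made up 60 probe sets (54 genes): 34 ground-like (grl), 13 groundhog (grd) and 11 warthog (wrt) probe sets, with 1 each for quahog (qua-1) and hog-1. Patched-type genes made up 35 (26 genes), of which 32 were Patched-related (ptr) and 3 Patched (ptc), and che-14 had 2. More than 1 probe set was present for 13 genes, 29 probe sets in all, and no member was removed by a filter on signal. All 81 symbols were found in the RefSeq table of assembly WBcel235, and 9 of the genes lie next to another member on the chromosome, among them grd-3 beside grd-10 and wrt-1 beside wrt-10.

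In flies and vertebrates Hedgehog is a secreted signal modified by a sterol, Patched is the sterol-sensing membrane protein that receives it, and Dispatched lets it leave the cell that makes it. The worm has no conventional Hedgehog and no Smoothened, the protein that Patched restrains elsewhere, but it carries large families of secreted Hedgehog-related proteins, some with the self-cleaving Hog domain, and of Patched-related proteins with a sterol-sensing domain. Several of these genes are known from the epidermis and other cuticle-making epithelia, where their loss disturbs molting, growth or secretion.

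Neuronal RNA was compared with RNA of all cells at 2 stages. Embryonic pan-neural cells carried F25B3.3::GFP (strain NW1229, evIs111), a reporter active across the nervous system, and were sorted after 24 h in culture (n = 3), against all viable cells of wild-type embryos cultured alike (n = 4). At the mid-L2 larval stage, RNA was pulled down with a tagged poly(A)-binding protein, PAB-1, made as F25B3.3::FLAG::PAB-1 for the pan-neural sample (SD1241, gaIs153, n = 3) or as unc-4::3XFLAG::PAB-1, with a longer tag, for the A-class sample (NC694, wdEx257, an array outside the chromosomes, n = 4), the unc-4 promoter being active in VA and SAB motor neurons, weakly in DA, and in I5 and AVF. Mock pull-downs from wild-type N2 larvae served as reference for both (n = 5), the same 5 hybridizations having been normalized once with each larval sample. All samples were labelled as biological replicates, and all RNA was amplified before hybridization. Levels are given as log2 of the deposited intensity, so that a difference of 1 is a 2-fold difference.

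Of 28 probe sets for pan-neuronal genes, 3 were higher in embryonic pan-neural cells, 21 in the larval pan-neural and 5 in the larval A-class sample than in their references, and none was lower. The probe set of F25B3.3 itself (rgef-1) was near the array floor everywhere, at 3.51 to 3.56 in larval pan-neural RNA and 3.41 to 3.66 in the reference, whereas unc-4 stood at 9.16 to 10.02 in the A-class sample and 6.21 to 6.76 in its reference. Of 14 probe sets for A-class and cholinergic motor neuron genes, unc-4 among them, 7 were higher in the A-class sample than in its reference. In the larval pan-neural sample 11 of the 14 were higher. Epidermis and cuticle genes (28 genes, 48 probe sets) moved as well. Their summed intensity was 4862 to 6817 in embryonic pan-neural cells against 13770 to 19520 in the reference, with 9 probe sets lower. In the larval pan-neural sample it was 15590 to 21750 against 30600 to 49080, with 7 lower, and in the A-class sample 38010 to 55390 against 29640 to 46720, with 0 called in either direction. Other tissues were also low in the larval pan-neural sample, with 7 of 16 intestinal probe sets lower (summed intensity 10850 to 14500 against 20670 to 24510), 3 of 14 germline probe sets lower and 0 of 24 muscle probe sets called at a median of -0.63, while in embryonic pan-neural cells 3 muscle and 2 germline probe sets were lower. No hybridization day held both groups of the embryonic or of the A-class comparison, so that day and group cannot be told apart there, while 1 day held larval pan-neural replicates 2 and 3 together with larval reference replicates 4 and 5. The embryonic pan-neural arrays and their references shared no chip lot, so that lot and group cannot be told apart there either. All larval arrays were of 1 lot, and A-class replicate 1 alone among them had a different wash protocol. The log2 ratio of the 3′ to the 5′ Gapdh probe set, a sign of RNA integrity, was 0.66 to 0.93 in embryonic pan-neural cells against 1.02 to 1.27 in their reference. Among larval arrays it was 2.60 to 2.87 in the pan-neural sample against 2.14 to 2.75 in the reference normalized with it, apart from 1.32 in replicate 4, and 2.26 to 2.82 in the A-class sample against 2.39 to 2.96 in its reference, apart from 1.46 in replicate 4. The same ratio for Actin overlapped between each neuronal group and its reference. In the embryonic groups it was 3.14 to 3.82 in pan-neural cells against 3.06 to 3.54 in the reference. In bulk RNA of this kind, fewer cells of a type and less RNA per cell cannot be told apart.

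Most members were above the array floor in at least some samples. A group mean below the lower quartile of all probe sets was counted as near the floor, which is not a test of detection. This places 25% of all probe sets near the floor in any group, where 14 to 25 of the 97 members were. In none of the 6 groups was the mean near the floor for 64 members, and in all 6 it was so for 8: grd-1 (173042_s_at), grd-16, grl-24, grl-25 (174351_at), grl-28, ptr-2 (175079_s_at), wrt-3 and wrt-9 (185567_at). A further 8 were near the floor in both embryonic groups and in no larval group, namely grd-5, grd-10, grl-17, grl-20 (173311_s_at), grl-29 (186154_at), hog-1, ptr-10 and ptr-16. Of these grd-10 was high in larvae, and the promoter of this gene is used as a marker of the epidermal seam cells. Its log2 level was 4.25, 4.17 and 4.53 in embryonic pan-neural cells and 4.66, 4.46, 4.37 and 4.31 in the embryonic reference. In larvae it was 10.03, 10.93 and 10.16 in the pan-neural sample and 9.70, 10.96, 10.86, 11.10 and 11.19 in the reference, so that the groups overlapped at each stage. Because the 2 stages were normalized apart, the step between them is a description only: grd-10 ranked at the 18.1 percentile of all probe sets in embryonic pan-neural cells and at the 23.1 percentile in embryonic reference cells, beside 96.9 in larval pan-neural RNA and 97.5 in the larval reference. Its neighbour grd-3 was not near the floor in embryos, at 39.7 in pan-neural cells and 39.3 in the reference, and ranked at 94.8 in larval pan-neural RNA and at 96.4 in the larval reference. At the other end ptc-1, a Patched homolog needed for cytokinesis in the germline, ranked at 96.9 in embryonic pan-neural cells and 97.3 in the embryonic reference by probe set 175397_at, and at 94.1 in larval pan-neural RNA and 90.7 in the larval reference.

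**Figure D1:**
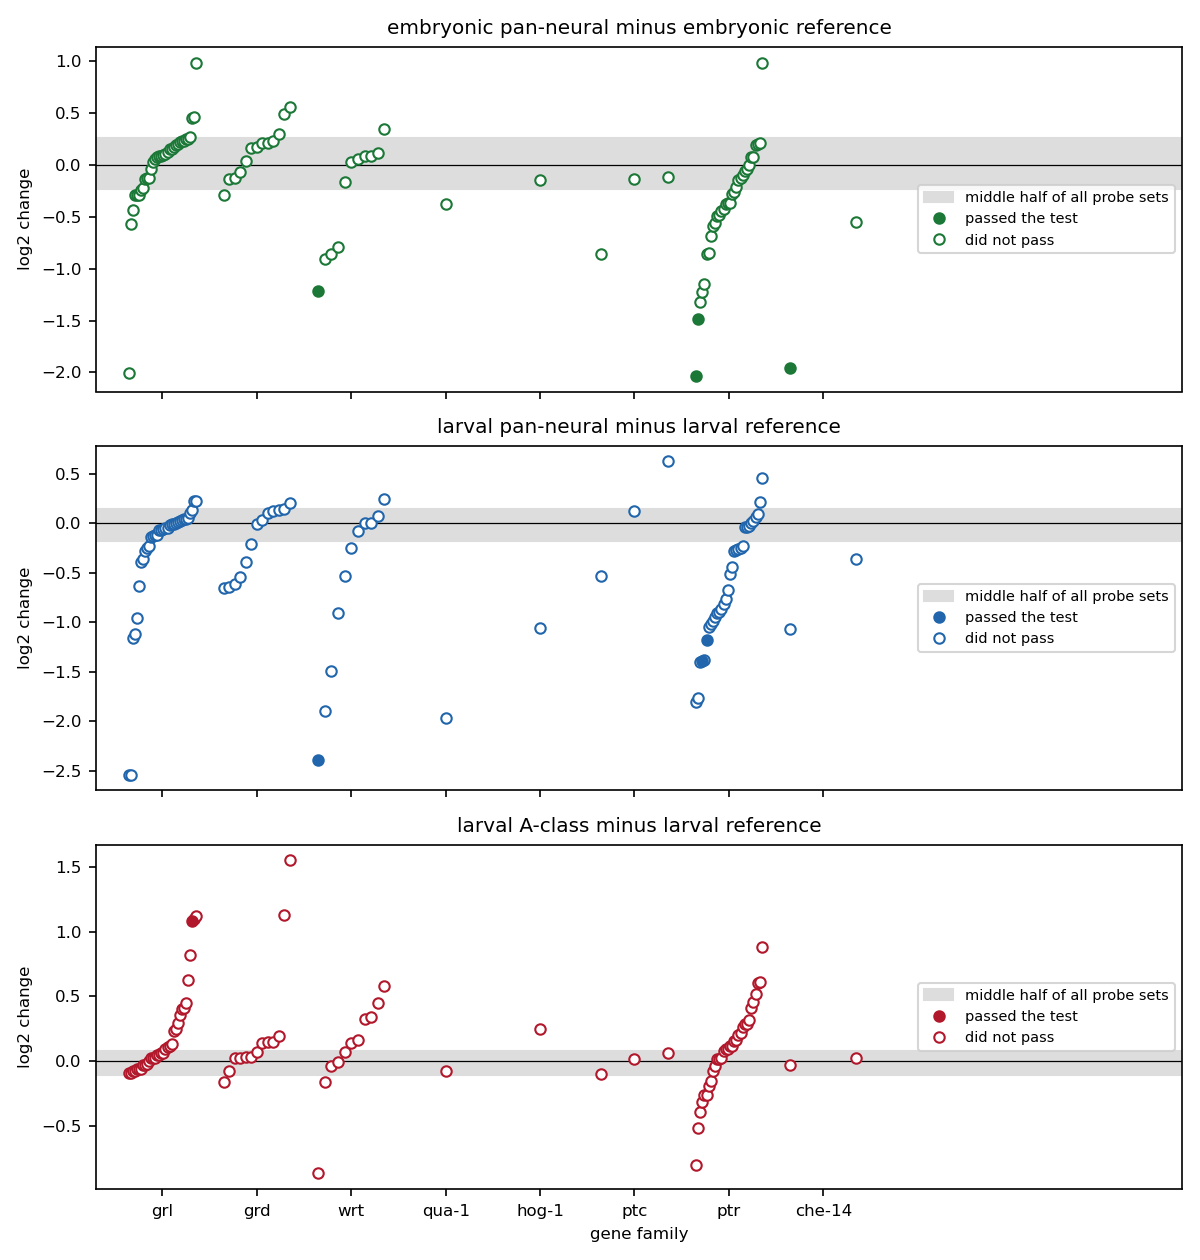
Log2 differences of the 97 probe sets, vertical axis, by gene family along the horizontal axis, for larval A-class RNA (bottom), larval pan-neural RNA (middle) and embryonic pan-neural RNA (top), each minus its own reference. Each point is 1 probe set, filled where it passed the test, and the grey band is the interquartile range of all probe sets. The ptr family had 26 of 32 members below 0 in both pan-neural comparisons, whereas 10 of 32 were below 0 in the A-class comparison.

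The first comparison asked how the families stood in embryonic neurons relative to all embryonic cells. In embryonic pan-neural cells, 4 of the 97 members fell, and they came from 3 of the families: the warthog gene wrt-10, the Patched-related genes ptr-4 and ptr-22, and che-14, which codes for a Dispatched-like protein needed for apical secretion in epithelia. A member counted as called where limma's p, adjusted over all probe sets, was below 0.01 and the fold difference was 1.5 or more. The share called lower was 4.12% of the members and 2.78% of all probe sets, which puts the members' count close to the background at this threshold. None was called higher, against 1.96% of all probe sets, and 5 had an unadjusted limma p below 0.05 (5.15% against 15.5% of all probe sets).

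The clearest of the 4 was ptr-4, a Patched-related gene needed for molting. Probe set 180485_s_at gave log2 levels of 5.33, 5.45 and 5.36 in pan-neural cells, against 7.84, 7.37, 7.22 and 7.22 in the reference. The groups lay far apart, with a log2 difference of -2.03 ± 0.17 (SE), or 4.09-fold lower (limma, adjusted p = 0.00103). The second probe set of the gene, 172991_at, gave 5.34, 4.78 and 5.02 in pan-neural cells and 5.92, 5.34, 5.34 and 5.37 in the reference, which overlapped, and its difference of -0.45 did not pass (adjusted p = 0.168). For che-14, probe set 174657_s_at read 6.31, 6.15 and 5.19 in pan-neural cells, against 7.90, 7.85, 7.58 and 8.02 in the reference. Pan-neural replicate 3 was about a log2 unit under the other pan-neural replicates, and every pan-neural array lay under every reference array. The difference was -1.96 ± 0.27 (3.88-fold lower, limma adjusted p = 0.00445), while probe set 188090_at gave -0.55 (adjusted p = 0.0423) and was not called.

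Patched-related ptr-22 had 4.97, 4.72 and 4.83 in pan-neural cells, against 6.19, 6.79, 6.15 and 6.20 in the reference. Reference replicate 2 was the high one, and the groups did not overlap (-1.49 ± 0.18, 2.81-fold lower, limma adjusted p = 0.00294). Warthog wrt-10 had 6.14, 5.86 and 6.62 in pan-neural cells, against 7.52, 7.13, 7.59 and 7.46 in the reference. These groups did not overlap either, and the difference was -1.22 ± 0.20 (2.33-fold lower, limma adjusted p = 0.008). With each array left out in turn, ptr-4 kept its call in 7 of 7 fits, ptr-22 in 4 (it was lost without any 1 of the pan-neural arrays), che-14 in 2 (without pan-neural replicate 3 or reference replicate 1) and wrt-10 in 1 (without pan-neural replicate 3). With hybridization day as a random block only ptr-4 remained (adjusted p = 0.00501, range 0.000523 to 0.00846 over the alternatives in which its probe set was tested). The probe sets of ptr-4, che-14 and wrt-10 called here carry the array's _s suffix, which marks probes that match more than 1 transcript, so that with such probe sets left out ptr-22 was the single call and the others had no value. The epidermis list was lower in the same arrays, and its part in these differences was not tested.

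Below the called genes the families parted. The members had a median of -0.096, which turned to 0.025 without _s and _x probe sets and to 0.0075 without reference replicate 1. The ptr probe sets had a median log2 difference of -0.37, with 26 of 32 (81.2%) below 0, against a median of 0.044 and 44.2% below 0 over all probe sets. The median was 0.091 for grl, 0.17 for grd and 0.025 for wrt. Pan-neural levels lay wholly below the reference levels for 23 members (23.7%, against 13.4% of all probe sets) and wholly above them for 5 (5.15% against 15.3%). The ground-like gene grl-4 had a difference of -2.01, as large as that of ptr-4, but its reference replicates were spread (8.87, 7.65, 6.91 and 6.91, against 5.82, 5.38 and 5.52 in pan-neural cells) and it was not called (adjusted p = 0.0255). The highest differences were 0.99 for grl-8, at 5.18, 5.64 and 4.79 in pan-neural cells against 4.28, 4.18, 4.22 and 4.19 in the reference (adjusted p = 0.0138, the reference being near the floor), 0.98 for ptr-5 (adjusted p = 0.141) and 0.56 for grd-1 probe set 189952_at (adjusted p = 0.0588). The Patched homologs did not pass: ptc-1 gave -0.12 and -0.86 by its 2 probe sets (adjusted p = 0.761 and 0.0366), and ptc-3, whose loss impairs osmoregulation and molting, gave -0.13 (adjusted p = 0.594). Neither did qua-1, a molting gene, at -0.37 (adjusted p = 0.265), nor hog-1 at -0.14, with both groups near the floor (adjusted p = 0.418).

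**Figure D2:**
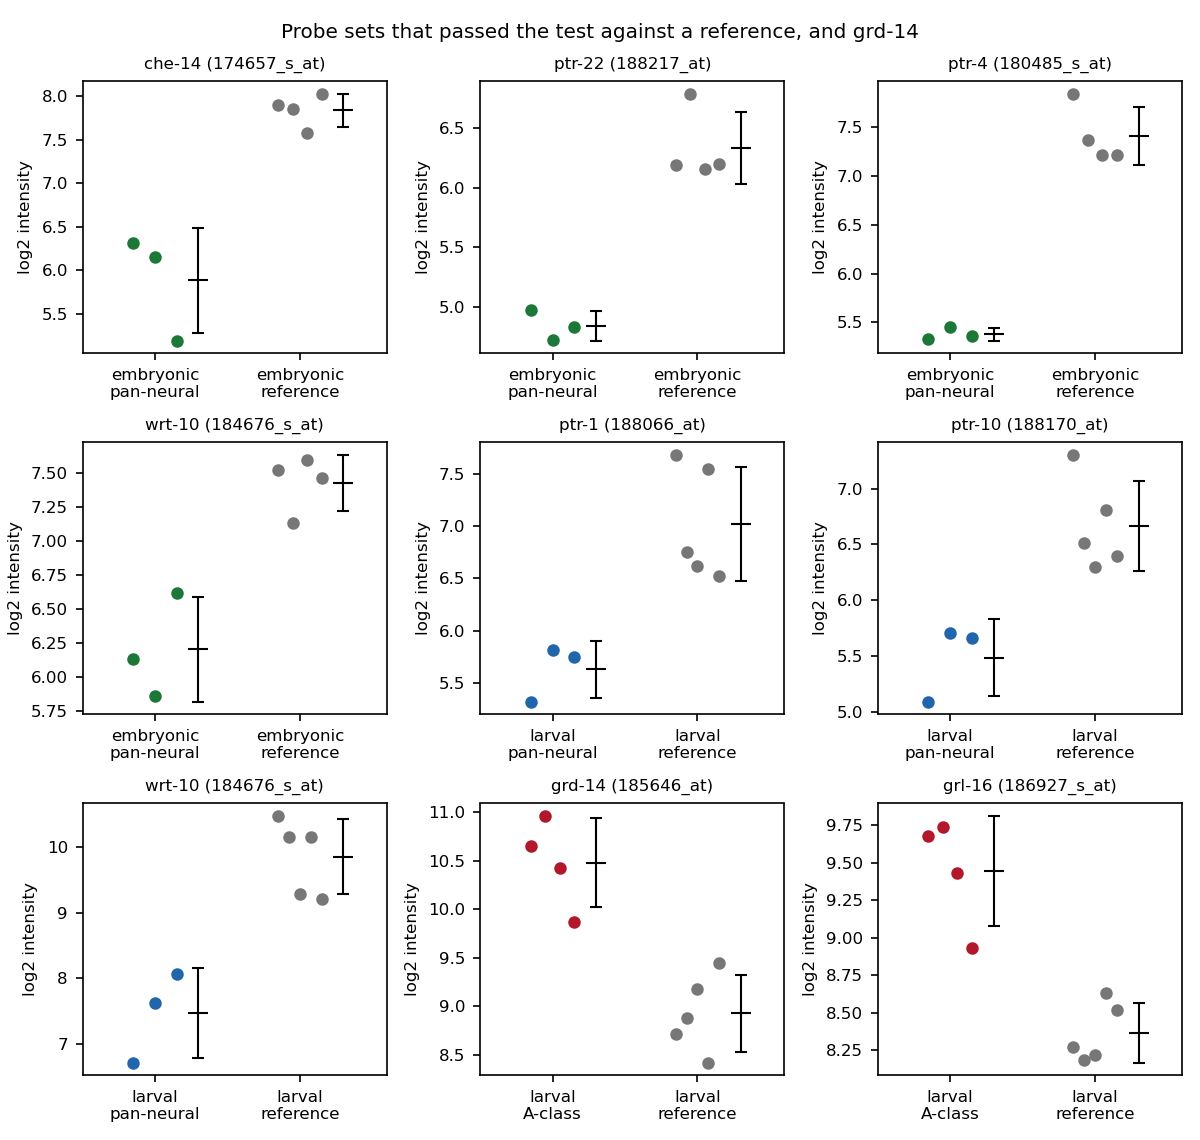
Log2 intensity (vertical axis) of the members called against a reference, and of grd-14, in each array, with the neuronal group left of its reference and the group mean ± SD beside the points. The points of each member do not overlap between its groups, and for wrt-10 in larvae they run over 6.71 to 8.07 in the pan-neural sample and 9.21 to 10.48 in the reference.

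The second comparison asked the same of the larval nervous system. In the larval pan-neural sample 3 members fell: wrt-10, the only member called in both pan-neural comparisons, and the Patched-related genes ptr-1 and ptr-10. This was 3.09% of the members, against 3.34% of all probe sets, so that at this threshold the members were called lower about as often as any probe set. At an adjusted p below 0.05, 17 more members were called lower, and 1601 of all 22548 probe sets were. None was called higher, where 6.08% of all probe sets were, and 3 had an unadjusted limma p below 0.05 in that direction (3.09% against 14.2%).

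For wrt-10 the log2 levels were 6.71, 7.62 and 8.07 in the pan-neural sample, against 10.48, 10.15, 9.29, 10.15 and 9.21 in the reference. The lowest reference array stood above the highest pan-neural one, and the difference was -2.39 ± 0.37 (5.24-fold lower, limma adjusted p = 0.00199). It kept its call with any 1 of the 8 arrays left out. On the day shared by both groups (pan-neural replicates 2 and 3, reference replicates 4 and 5), the difference was -1.83 (adjusted p = 0.043, range 0.00125 to 0.043 over the alternatives in which it was tested) and did not pass the threshold. Its only probe set is of the _s kind. With such probe sets left out wrt-10 had no value and ptr-4 (172991_at) was called in addition to ptr-1 and ptr-10.

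For ptr-1 the levels were 5.32, 5.82 and 5.75 in the pan-neural sample, against 7.68, 6.75, 6.62, 7.54 and 6.53 in the reference, where replicates 1 and 4 were high. The groups did not overlap, with a difference of -1.39 ± 0.29 (2.62-fold lower, limma adjusted p = 0.00882). The promoter of ptr-10 is used as a marker of glia, and its transcript read 5.09, 5.70 and 5.66 in the pan-neural sample, against 7.30, 6.51, 6.30, 6.81 and 6.39 in the reference. Here too every pan-neural array lay below the reference (-1.18 ± 0.24, 2.27-fold lower, limma adjusted p = 0.00802). Both calls were sensitive to the arrays used: with 1 of 8 left out, ptr-10 was kept only without reference replicate 1 or 3 and ptr-1 only without reference replicate 5. Within the shared day the differences were -1.25 for ptr-1 (adjusted p = 0.0597, range over all alternatives 0.00587 to 0.0597) and -0.92 for ptr-10 (adjusted p = 0.0249, range 0.00537 to 0.065), and no member was called. A list of 13 measured glial genes (22 probe sets) held 1 higher and 1 lower probe set, with summed intensities of 3505 to 4019 in the pan-neural sample and 4086 to 5578 in the reference; its part in the ptr-10 value was not tested.

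Many more members were low without passing the test. A difference of at least 1.5-fold, whatever its p, was seen in the lower direction for 32 members (33% against 9.55% of all probe sets), and 28 had pan-neural levels wholly below the reference (28.9% against 11.5%). The median was -0.23 over the members and 0.0018 over all probe sets, and by family it was -0.59 for ptr (26 of 32, or 81.2%, below 0, against 49.7% of all probe sets), -0.25 for wrt, -0.061 for grl and close to 0 for grd. The largest differences belonged to the ground-like genes grl-7 and grl-15. By probe set 173004_s_at, grl-7 read 5.48, 6.20 and 5.88 in the pan-neural sample, against 10.10, 8.35, 7.93, 8.96 and 6.63 in the reference. The pan-neural replicates were tight and the reference ran over 3.47 log2 units, which left a difference of -2.54 short of the threshold (adjusted p = 0.0208). The same held for grl-15, at 6.73, 7.51 and 7.37 in the pan-neural sample against 11.18, 9.95, 9.44, 10.07 and 8.07 in the reference (-2.54, adjusted p = 0.0128). For qua-1 the levels were 5.79, 6.16 and 6.68 against 9.58, 8.03, 7.44, 8.49 and 7.35 (-1.97, adjusted p = 0.0173). Both ptr-4 probe sets were just outside the threshold, at -1.81 and -1.77 (adjusted p = 0.0104 and 0.0101). Further differences that did not pass were -1.90 for wrt-1 (adjusted p = 0.0285), -1.06 for hog-1 (0.0159), -1.06 for che-14 probe set 174657_s_at (0.013) and -0.53 for ptc-3 (0.094).

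On the high side, where 29 members lay, ptc-1 probe set 175397_at had the largest difference. It read 9.51, 9.29 and 9.75 in the pan-neural sample, against 9.28, 8.91, 9.06, 8.31 and 8.89 in the reference, and the groups met without overlapping (0.63 ± 0.20, adjusted p = 0.0614). Its other probe set gave 0.13 (adjusted p = 0.469). The only other members wholly above the reference were grl-8 (0.22) and grd-9 (0.14, near the floor in both groups), 3 of 97 or 3.09% against 12.5% of all probe sets. The next highest differences were 0.46 for ptr-5 and 0.25 for wrt-7 (adjusted p = 0.125 and 0.324).

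The third comparison took the same reference against RNA from the A-class motor neurons. In the larval A-class sample a single member rose, the ground-like gene grl-16, or 1.03% of the members against 0.776% of all probe sets. Its log2 levels were 9.68, 9.74, 9.44 and 8.94 in the A-class sample, against 8.27, 8.19, 8.22, 8.63 and 8.52 in the reference. A-class replicate 4 came nearest to the reference and the groups did not overlap, with a difference of 1.08 ± 0.17 (2.12-fold higher, limma adjusted p = 0.00927). With 1 of 9 arrays left out the call was kept only without A-class replicate 4. It was also lost after median centring, with the replicate block and with the random day block (adjusted p = 0.0206), within a range of 0.00315 to 0.0936 over the alternatives in which it was tested. Its probe set is of the _s kind, and with such probe sets left out it had no value and grd-14 was the single call. No member was called lower, where 0.115% of all probe sets were, and 4 had an unadjusted limma p below 0.05 in that direction (4.12% against 8.21%).

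The groundhog gene grd-14 had the largest difference in this comparison. It read 10.65, 10.96, 10.43 and 9.87 in the A-class sample, against 8.71, 8.88, 9.18, 8.42 and 9.45 in the reference, without overlap (1.55 ± 0.25, 2.93-fold higher). Its adjusted p of 0.01 fell just short of the threshold, and it passed without A-class replicate 4 or without reference replicate 5. The next were grd-5 at 1.13 (adjusted p = 0.067) and grl-4 at 1.12 (adjusted p = 0.197), both with overlapping groups. At least 1.5-fold higher, whatever the p, were 10 members (10.3% against 2.84% of all probe sets), whereas the members whose groups did not overlap in that direction were grd-14, grl-16, wrt-8 and ptr-9 (4.12% against 3.92%). On the low side ptr-10 stood at 5.41, 5.61, 5.75 and 5.52 in the A-class sample against 6.87, 6.26, 6.0, 6.64 and 6.09 in the reference, the 1 member with A-class arrays wholly below (1.03% against 2.81% of all probe sets; -0.80, adjusted p = 0.0395). The other low values were -0.86 for wrt-10 (adjusted p = 0.217) and -0.51 for ptr-8 (adjusted p = 0.18), neither of which passed. The Patched homologs and the single genes lay near 0, with ptc-1 at 0.018 and -0.096, ptc-3 at 0.066, che-14 at 0.026 and -0.031 (the second near the floor in both groups), qua-1 at -0.071 and hog-1 at 0.25 (adjusted p between 0.616 and 0.977), and the signs of ptc-1 (175397_at), ptc-3, che-14 and qua-1 turned when single arrays were left out. The ptr median was 0.11, with 10 of 32 (31.2%) below 0 against 52.4% of all probe sets.

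The larval arrays also differed within groups, and the members did so more often than other probe sets. Over the 5 larval references, 34 of 97 members (35.1%) ranged over at least 1 log2 unit, against 7.77% of all probe sets. The widest were grl-7 (3.47), grl-15 (3.11), wrt-1 (2.69), grl-21 (2.45) and qua-1 (2.23). Of the 34, 24 (70.6%) were highest in reference replicate 1 and 22 lowest in replicate 5, whereas of the 1751 probe sets with such a range over the whole array 411 (23.5%) were highest in replicate 1 and 411 lowest in replicate 5. A smaller set of 5 (14.7%, against 36.6% of all probe sets with such a range) went the other way, being lowest in replicate 1: grd-3, grd-10, grl-4, grl-21 and ptr-12. The A-class arrays divided the same genes, a pattern found widely on these arrays. For 22 of the 24 (all but wrt-10 and ptr-6 probe set 188240_at), A-class replicates 2 and 3 both stood above replicates 1 and 4, as they did for 267 of the 411 probe sets of that kind. For all 5 of the others A-class replicate 1 was the highest, as it was for 488 of 641 such probe sets over the whole array. Among the 22 was wrt-1, which read 7.94, 9.48, 9.56 and 9.18 in the A-class sample and 10.28, 9.01, 8.42, 9.40 and 7.72 in its reference. The epidermis and cuticle list showed the same order, with 15 of 48 probe sets (31.2%) ranging over at least 1 log2 unit and 9 of these highest in replicate 1. A-class replicates 2 and 3 were hybridized on 1 day, as were reference replicates 4 and 5, which read 8.96 and 6.63 for grl-7. The part of epidermal RNA, of hybridization day and of the wash protocol of A-class replicate 1 in this spread was not tested.

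**Figure D3:**
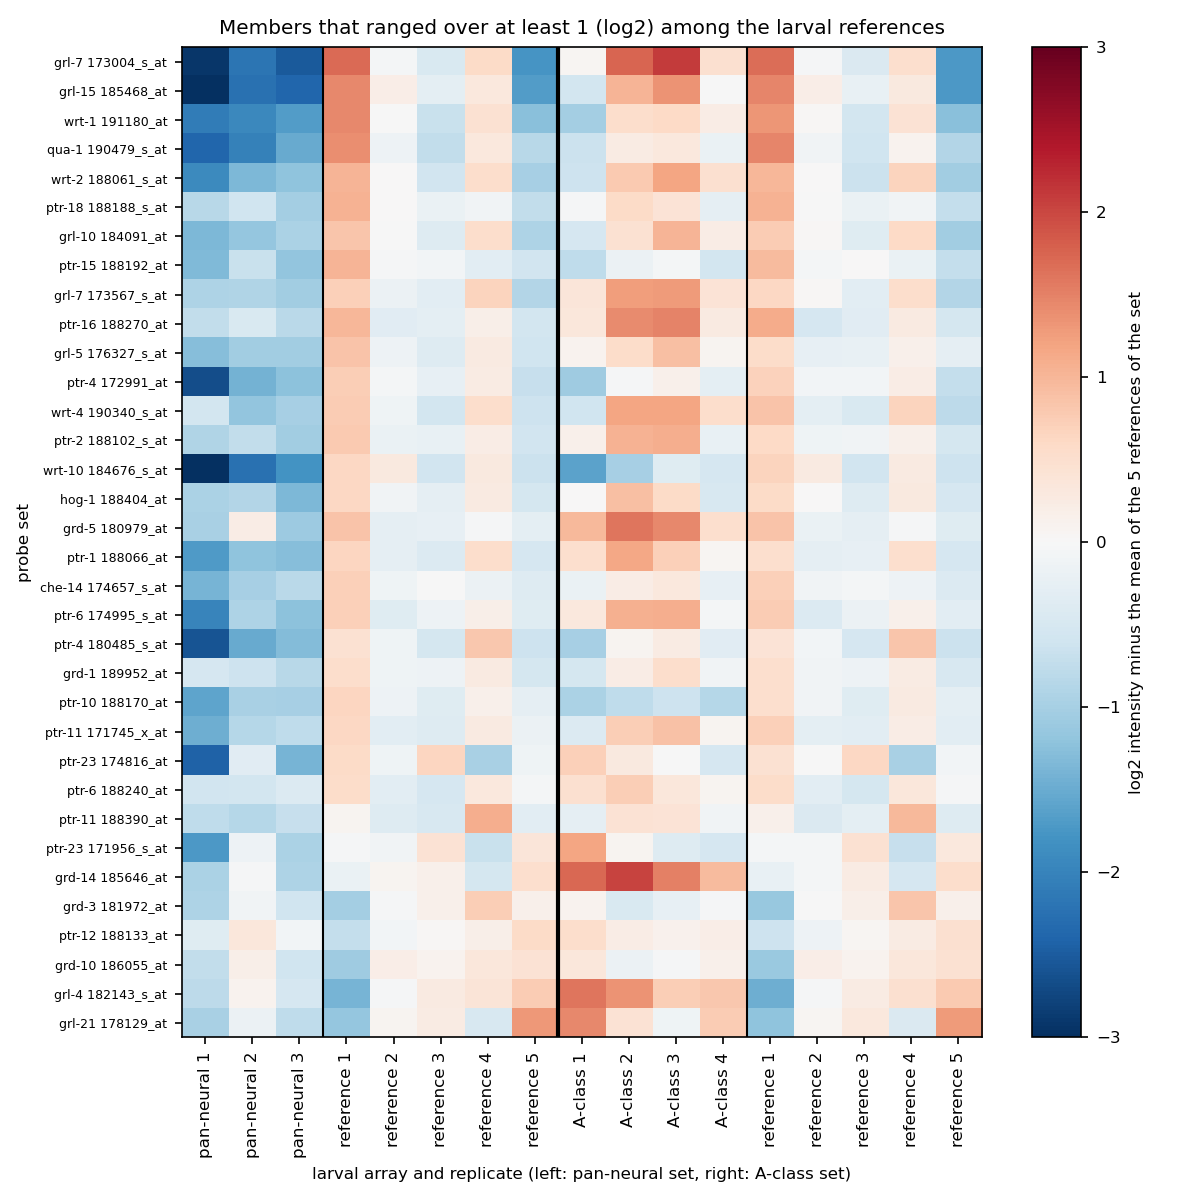
Heat map of the 34 members that ranged over at least 1 log2 unit among the larval references (rows), with each array as a column, the pan-neural set on the left and the A-class set on the right, coloured by log2 intensity minus the reference mean of its set. Reference replicate 1 is red for most members and replicate 5 blue, and grl-7 and grl-15 run over 3.47 and 3.11 log2 units in the reference.

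Since both larval samples had the same reference hybridizations, they were compared with each other after the mean reference of each set had been subtracted from every array. Here the members' count lay above the background. In A-class RNA 13 probe sets of 11 genes rose relative to pan-neural RNA, 13.4% of the members against 1.95% of all probe sets. None was lower, against 3.76% of all probe sets, with 2 at an unadjusted limma p below 0.05 (2.06% against 13.2%). At least 1.5-fold higher, whatever the p, were 37 members (38.1% against 6.83%), and in 40 the samples did not overlap in that direction (41.2% against 12.2%). The median difference was 0.34 over the members and -0.0090 over all probe sets, and 0.62 for ptr, 0.43 for wrt, 0.075 for grl and 0.037 for grd.

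Ligand-type genes gave 9 of the 13. The largest difference was that of grl-7, whose levels relative to the reference mean were 0.07, 1.75, 2.10 and 0.47 in the A-class sample and -2.91, -2.20 and -2.51 in the pan-neural sample (probe set 173004_s_at). The gap between samples exceeded the spread within either, with a difference of 3.64 ± 0.47 (limma, adjusted p = 0.00194), and its other probe set rose by 1.77 (adjusted p = 0.00249). For grl-15 the relative levels were -0.54, 1.01, 1.35 and -0.02 in the A-class sample and -3.01, -2.23 and -2.37 in the pan-neural sample, again without overlap (2.99 ± 0.44, adjusted p = 0.00331). In both genes A-class replicates 2 and 3 were the high ones. The other ligand-type genes that rose were grd-14 (2.19, adjusted p = 0.00218), wrt-1 (1.97, 0.0091), the molting gene qua-1 (1.90, 0.00318), grl-5 (1.53, 0.00216), grl-4 (1.51, 0.00786) and grl-16 (1.44, 0.00387).

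Among Patched-type genes, ptr-1 had relative levels of 0.49, 1.17, 0.72 and 0.06 in the A-class sample and -1.70, -1.20 and -1.27 in the pan-neural sample. The samples lay more than a log2 unit apart (2.00 ± 0.25, limma adjusted p = 0.00146). Both probe sets of ptr-6 rose, by 1.98 (adjusted p = 0.00672) and by 0.92 (0.00529), as did che-14 probe set 174657_s_at by 1.09 (0.00688), its other probe set giving 0.32 (0.0882). Both ptr-6 probe sets were near the floor in larval pan-neural RNA, and the second narrowly so in the reference of that set, so that these differences are rough. The other che-14 probe set was near the floor in every larval group. The lowest differences were -0.61 and -0.22 for the 2 ptc-1 probe sets (adjusted p = 0.0413 and 0.256), -0.53 for ptr-5 (0.0935) and -0.25 for wrt-7 (0.425), none of which passed. For ptc-3 the difference was 0.59 (0.0266) and for hog-1 1.31 (0.0238), also short of the threshold.

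This count rested on the few pan-neural arrays. Without pan-neural replicate 1 only ptr-1 was called, and without replicate 3 only ptr-1 and qua-1. Without A-class replicate 2 there were 5 calls and without A-class replicate 3 there were 6. The call of ptr-1 was kept without any 1 of the neuronal arrays. All 13 calls were kept without any 1 of the 5 references. That step could hardly change them, since the same hybridizations were subtracted from both samples. With the references treated as separate samples, 3 were called. Of the 13, 8 are of the _s kind, and 5 (grd-14, grl-15, ptr-1, ptr-6 by 188240_at and wrt-1) were called with such probe sets left out. The epidermis list moved with the members in this comparison, 12 of its 48 probe sets being higher in the A-class sample (summed intensity 38010 to 55390, against 15590 to 21750 in the pan-neural sample), as did 5 of 16 intestinal probe sets, while 7 of 28 pan-neuronal probe sets were lower. Of the 14 A-class and cholinergic probe sets, 1 was higher and 3 were lower, with a median of -0.29. The part of these tissues in the members' differences was not tested, and hybridization day, the line and the tag used cannot be told apart from the neurons marked, since no day held both samples.

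**Figure D4:**
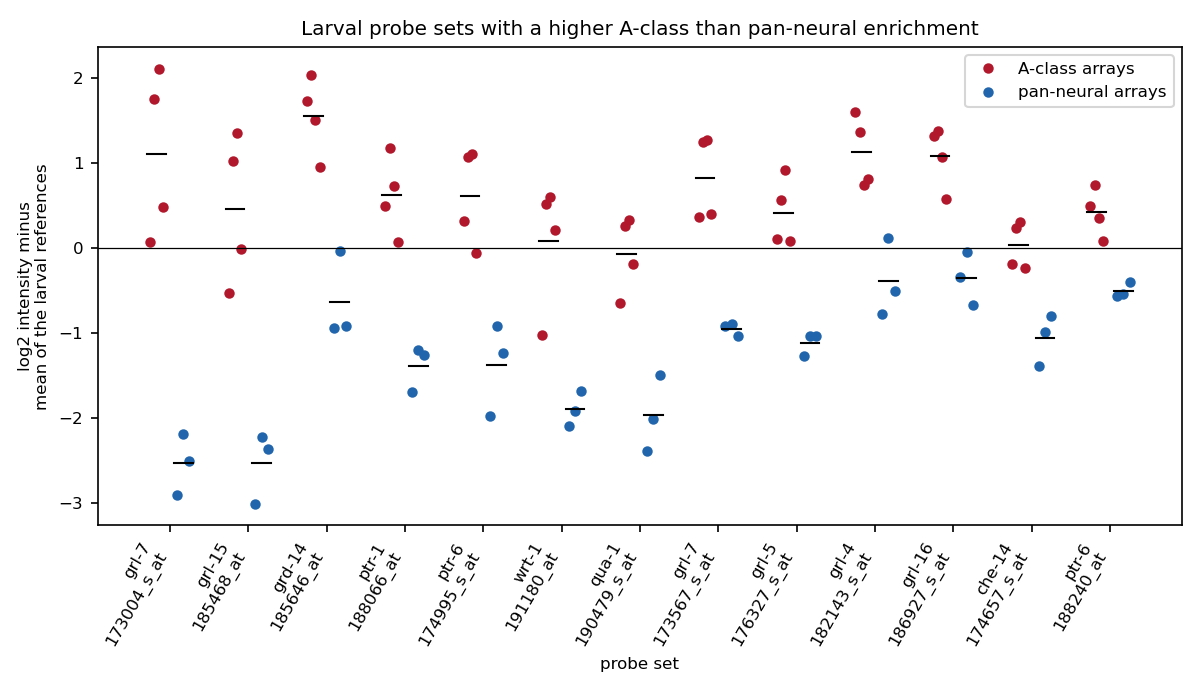
Log2 intensity minus the mean of the larval references (vertical axis) of the 13 probe sets called higher in the A-class sample than in the pan-neural sample, with each array as a point, the group mean as a line and the A-class group left of the pan-neural group. For grl-7 (173004_s_at) the A-class arrays lie between 0.07 and 2.10 and the pan-neural arrays between -2.91 and -2.20.

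The larval and embryonic pan-neural samples were compared as the larval difference minus the embryonic one. Stage cannot be told apart here from the way RNA was obtained, by pull-down from whole larvae or from sorted cultured cells. A single member, ptr-22, differed, 1.03% of the members against 3.13% of all probe sets in that direction. Its larval levels were 4.97, 5.03 and 5.17 in pan-neural RNA, against 5.59, 5.31, 5.89, 5.34 and 5.35 in the reference, without overlap, a difference of -0.44, whereas the embryonic difference was -1.49. The difference between the 2 was 1.05 ± 0.23 (limma, adjusted p = 0.00912), and it was kept in 3 of 15 fits with an array left out (without larval reference replicate 3, embryonic reference replicate 1 or embryonic reference replicate 3). None was called lower, against 1.88% of all probe sets, and 18 had an unadjusted limma p below 0.05 in that direction (18.6% against 13%). The largest negative values were -2.25 for grl-15, -2.11 for grl-7 and -1.60 for qua-1 (adjusted p = 0.0592, 0.0952 and 0.0849), and the largest positive ones 1.62 for grl-4, 1.42 for ptr-25 and 1.19 for ptr-2 probe set 174307_at (adjusted p = 0.137, 0.015 and 0.153). This ptr-2 probe set was near the floor in both larval groups, and in the embryonic reference it read 4.79, 6.65, 7.13 and 6.28. Embryonic levels of ptr-25 were 6.61, 6.60 and 7.32 in pan-neural cells against 8.42, 7.76, 7.68 and 8.81 in the reference, while in larvae they were 6.96, 6.81 and 6.57 against 6.72, 6.68, 6.85, 6.40 and 6.76. For the single genes this difference was 0.75 and 0.99 for ptc-1 (adjusted p = 0.16 and 0.0144), 0.89 and 0.20 for che-14 (0.141 and 0.506, the second near the floor in both larval groups), -0.39 for ptc-3 (0.371) and -0.92 for hog-1 (0.0596).

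A fixed list held 14 other genes taken as linked to the Hedgehog pathway. Among them were tra-1, the Patched-like daf-6, the NPC1 homologs ncr-1 and ncr-2, the SCAP homolog scp-1 and the glypican genes lon-2 and gpn-1. Of the 14 genes, 13 were measured, on 21 probe sets. None was called in the embryonic, the A-class or either of the between-sample comparisons. In the larval pan-neural comparison 1 of the 21 was called higher, as were 6.08% of all probe sets. The probe set called was 174576_at of lon-2, which rose by 0.76 (limma, adjusted p = 0.00169), while the second probe set of the gene, near the floor in both groups, gave -0.10 (adjusted p = 0.597). The scp-1 probe sets gave -2.23 and -1.60 in embryonic pan-neural cells (adjusted p = 0.0233 and 0.0275), and daf-6, which acts in the glia of sense organs, gave -0.97 in the larval pan-neural sample (adjusted p = 0.0175); neither gene was called.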

How the data were processed

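The authors deposited 24 columns of RMA intensity on a linear scale, from 19 independent hybridizations normalized in 3 separate sets (embryonic, larval pan-neural, larval A-class) with RMA software whose version no source used here gives. The deposited intensities were taken to log2, 77 control probe sets were left out, and 22548 probe sets were tested with limma 3.58.1 in R 4.3.3 in place of the study's SAM test. P-values were adjusted by Benjamini-Hochberg over all of them, and a call required an adjusted p below 0.01 and 1.5-fold. Probe sets were named from the platform annotation (20766 with 1 gene, 887 with several, 895 with none), and 2 probe sets shared between a member and another gene were left out.

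The pan-neural samples were compared as differences of differences. The larval samples were compared after subtraction of the mean reference of each set, which treats that reference as fixed; the 2 versions of each reference agreed more closely (r² 0.991 to 0.993) than different references (at most 0.977). Named genes were all called members, ptc-1, ptc-3, che-14, qua-1, hog-1 and the 3 highest and 3 lowest members of each comparison; any other member named was chosen after its values were seen. The rule for the members rests on names alone, but it and the lists were chosen with earlier results of these data known. Scripts were tested on simulated data. A motif search in promoters was not run, and no sequence was used. The precision is limited by the 3 to 5 arrays per group. Same-numbered larval samples did not deviate together as a rule (correlations -0.42 to 0.15), while the embryonic ones gave 0.05, 0.17 and 0.33. The main fits did not pair samples by number.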

Additional observations from a re-analysis of the deposited data

Results flagged for a closer look

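In 5 of 90 groups of 4 or 5 arrays, 1 array stood apart from the others by Dixon's test at the 95% level, where chance gives about 1 in 20. Embryonic reference replicate 1 had 7.51 for grl-15, the nearest being 6.25. For ptr-5, embryonic reference replicate 3 had 5.30 and the next 6.31, and for ptr-22 embryonic reference replicate 2 had 6.79 and the next 6.20. Larval reference replicate 1 had 9.53 for grd-5, the nearest being 8.63, and larval reference replicate 3 had 5.66 for wrt-7, the nearest being 5.90. All are log2 intensities.

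Several members differed in enrichment between neuronal samples by the limma test of the difference itself. Between the larval pull-down and the embryonic sorted cells this was ptr-22, at 1.05 (larval minus embryonic pan-neural). Between the A-class and the pan-neural larval samples these were grl-7 (3.64 and 1.77 by its 2 probe sets), grl-15 (2.99), grd-14 (2.19), ptr-1 (2.00), ptr-6 (1.98 and 0.92), wrt-1 (1.97), qua-1 (1.90), grl-5 (1.53), grl-4 (1.51), grl-16 (1.44) and che-14 (1.09). Among these, grl-4 behaved unlike most of the rest in its reference, being lowest in replicate 1 (6.47, against 7.90 to 8.71 in the others), while grl-7, grl-15, wrt-1 and qua-1 were highest there.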

How the results depend on the processing

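Of the counts of called members under the alternatives, 117 stayed within 1.5 times the count reported and 71 moved. Most of the 117 were reported counts of 0 that stayed at 0, and among reported counts above 0 more moved than stayed. For named members, 980 values kept direction and side of the threshold, 132 no longer passed, 38 newly passed and 17 changed sign. The causes were not tested. In embryonic pan-neural cells the count lower was 1 without probe sets that can cross-hybridize, 12 at an adjusted p below 0.05, 2 with the replicate block, 1 with day as a random block and 1 to 5 with an array left out, and the count higher was 1 with a trended robust variance, 1 at 0.05 and 0 to 1 with an array left out. In the larval pan-neural sample the count lower was 8 with the trend, 5 after quantile normalization, 8 without dim probe sets, 20 at 0.05, 0 with the replicate block, 7 with day as a random and 0 as a fixed block, 7 without references 1 and 5 (chosen after seeing the data) and 1 to 9 with an array left out; the count higher stayed at 0 to 0. In the A-class sample the count higher was 2 with the trend, quantile normalization, without dim probe sets or at 0.05, 0 after median centring, with the replicate block, with the random day block or without references 1 and 5, and 0 to 2 with an array left out; the count lower was 1 at 0.05. Between the pan-neural samples the count higher was 0 after quantile normalization, median centring or with the replicate block, 3 at 0.05 and 0 to 3 with an array left out, and the count lower 3 at 0.05 and 0 to 3. Between larval samples the count higher was 5 without cross-hybridizing probe sets, 31 at 0.05, 3 with separate references and 1 to 17 with an array left out, and the count lower 1 at 0.05. With the replicate block it was 13, of which 9 were among the 13 reported. At an adjusted p below 0.05, calls over all 22548 probe sets were 1628 lower in embryonic pan-neural cells (12 members). In the larval pan-neural sample they were 1601 lower (20 members), and with the trend 792 lower (8 members). They were 382 higher at 0.05 in the A-class sample (2 members) and 1088 higher between larval samples (31 members). Between the pan-neural samples they were 1534 higher and 1168 lower (3 members each).

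Signs changed only for values near 0. In the A-class comparison che-14 (174657_s_at) gave -0.075 with the replicate block and -0.062 with the random day block, ptc-3 gave -0.028 with the replicate block and qua-1 gave 0.13 without references 1 and 5. With an array left out, che-14 ran over -0.075 to 0.21 and, by 188090_at, -0.099 to 0.031, ptc-1 (175397_at) -0.098 to 0.10, ptc-3 -0.028 to 0.19 and qua-1 -0.29 to 0.30; in embryonic pan-neural cells ptc-1 (175397_at) ran over -0.30 to 0.093. With day as a fixed block, calls over all probe sets in the larval pan-neural comparison were 376 higher and 49 lower, against 1372 and 754. The promoter motif search was not run. Of the members' medians under the alternatives, 74 moved by less than the replicate spread and 20 by more. The embryonic one (-0.096) changed sign as given above, and without cross-hybridizing probe sets the others were -0.12 (larval pan-neural, -0.23 with all), -0.18 (between pan-neural samples, -0.24) and 0.21 (between larval samples, 0.34).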
